A study of Mus musculus with 6 samples.

Results

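The genes described here are 30 members of the peroxisomal machinery of the mouse kidney, chosen by name from the 23396 genes of the deposited table. Of these, 14 are biogenesis factors and membrane proteins (12 peroxins, which carry the symbol Pex, and the membrane proteins Pxmp2 and Pxmp4), and 16 are fatty acid transporters and enzymes of the organelle's interior, the matrix. All 30 were found, 29 by the same symbol and Pex11g by its older symbol Pex11c, and all 30 had enough fragments to be tested. Right kidneys came from 6 males, all 6 months old, and their RNA was sequenced without the ribosomal fraction. The knockout group held 3 mice homozygous for a targeted Far2 allele, strain C57BL/6N-Far2tm2a(KOMP)Wtsi/2J, and the wild-type group held 3 C57BL/6N mice. The labels name no promoter, no Cre driver and no treatment, and do not say whether the mice were littermates. Far2 encodes fatty acyl-CoA reductase 2, which makes fatty alcohols from activated fatty acids. The comparison asks whether peroxisomal genes differ between kidneys with and without an intact Far2 gene.

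Peroxisomes are small organelles with a single membrane that shorten very long and branched fatty acids, oxidise D-amino acids and 2-hydroxy acids, and break down the hydrogen peroxide those oxidases release. They hold no DNA: every protein is made in the cytosol and brought in by peroxins. Pex3, Pex16 and Pex19 place proteins in the membrane, Pex5 carries enzymes to the docking proteins Pex13 and Pex14, and the Pex2 and Pex10 ubiquitin ligases with the Pex6 ATPase and its anchor Pex26 return the carrier to the cytosol. In the kidney, peroxisomes are most abundant in the proximal tubule. Many enzyme genes of the organelle are known targets of the fatty acid receptor PPAR alpha.

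The features that send an enzyme into the matrix can be read in its gene. Pex5 recognises a type 1 signal, 3 residues at the very end of the protein. Pex7 recognises a type 2 signal near the start. The coding ends below were taken from the GENCODE M21 transcripts of GRCm38 (the assembly that mm10 names) and are shown because the signal separates the enzymes from the machinery that imports them. Each runs 5′ to 3′ on the coding strand over 30 bases in 1 exon, with the last 3 codons before the stop codon in capitals.
Scp2: cagcttcagccgggcaaaGCTAAGCTGtga
Decr2: gagtttgaatccttctctGCTAAGCTGtag
Mlycd: gcccagttccagaacaacAGCAAACTCtag
Hao2: ccagacctgattcagttcTCCAGATTAtaa
Acox2: ctgatgcaaagctggaaaCCCAAGCTGtga
Cat: atggctgcgaagggaaaaGCTAACCTGtaa
Amacr: gaaagtgataagctaaaaGCCAATCTCtga
Phyh: cttgtgaaaggagaaagaATAAACATTtga
Abcd3: acagaagatacagttgagTTCGGATCAtag
Pex16: cagaaaatctatttctacAGTTGGGGCtga
Pex19: gctaatggcgaacagtgtCTGATCATGtga
Scp2 lies at chr4:108044750-108044779 on the minus strand, Decr2 at chr17:26082876-26082905 (minus) and Mlycd at chr8:119410492-119410521 (plus). Hao2 lies at chr3:98875309-98875338 (minus), Acox2 at chr14:8225766-8225795 (minus) and Cat at chr2:103454756-103454785 (minus). Amacr lies at chr15:10995220-10995249 (plus), Phyh at chr2:4938331-4938360 (plus) and Abcd3 at chr3:121760232-121760261 (minus). Pex16 lies at chr2:92381065-92381094 (plus) and Pex19 at chr1:172134261-172134290 (plus).

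The first 4 of these, Scp2, Decr2, Mlycd and Hao2, end in the strict form of the signal: a codon for serine, alanine or cysteine, then one for lysine, arginine or histidine, then one for leucine or methionine. Scp2 and Decr2 end in the same letters. Acox2, Cat and Amacr match only a wider form, which also takes proline or threonine first, serine, asparagine or glutamine second, and isoleucine or phenylalanine last. Of the 14 matrix enzymes, 13 matched the wide form and 8 the strict form. Among all 21599 protein-coding genes with a complete coding sequence, 2.76% matched the wide form and 0.519% the strict form. None of the 14 biogenesis genes and neither transporter matched either form. The enzyme without a type 1 match was Phyh, and it was the only member with a type 2 match in its first 40 codons, which 0.0972% of all coding genes had. The capitals mark that match, at chr2:4919094-4919120 (plus).
Phyh type 2: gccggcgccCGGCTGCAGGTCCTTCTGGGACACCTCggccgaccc

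The RefSeq promoter table (GRCm38.p6, 250 bases before to 50 after each start) held 23 of the 30 members. They were searched on both strands for a direct repeat of AGGTCA with 1 base between the copies, the form that PPAR alpha is known to bind. None of the 23 held it exactly or with 1 mismatch, against 0.0481% and 0.644% of all 27025 promoters. The repeat is rare in windows of this size, so a count of 0 among 23 lies close to that background.

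The libraries held 15261362 to 20631158 fragments assigned to genes, and 14354 genes passed the filter on low counts. Far2 gave few fragments in either genotype, at 1.43 to 1.99 CPM (counts scaled to library size) in wild type and 1.26 to 1.67 in knockout (edgeR, log2 fold change −0.23 ± 0.24 SE, adjusted p = 0.781). The counts cover the whole gene, so they do not check the genotype labels. Markers of the proximal tubule, the main home of renal peroxisomes, were abundant in every library (summed CPM of 8 genes of its first segments 14335 to 17800). Wild-type library 0 stood apart: 5 markers of tubular injury summed to 86.5 CPM there and to 15.8 to 17.3 in the other 5 libraries. Its 5 fibroblast and mesangial markers summed to 266 CPM against 149 to 182, and its 5 measured macrophage markers to 195 against 82.7 to 113. Some of the values without it are given below. In whole kidney, fewer cells of a type and less RNA per cell cannot be told apart.

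Levels were compared between genes by FPKM, fragments scaled to gene length and library size, as the authors computed it. Matrix enzymes and machinery occupied different ranges. The median of the 16 transporters and enzymes was 104 FPKM and that of the 14 biogenesis and membrane genes was 17.3, against 6.42 for all tested genes. Cat (catalase, which removes hydrogen peroxide) was highest at 395 ± 16.5 FPKM (SD over all 6 libraries). Phyh, the phytanoyl-CoA hydroxylase that starts alpha-oxidation of branched fatty acids, followed at 375 ± 41.3 FPKM. Scp2, whose long product is the thiolase for branched chains and whose short product carries sterols, had 320 ± 26.6 FPKM (the deposited value covers both). With Pecr (245 ± 27.2 FPKM) and Hao2 (185 ± 67.3 FPKM), these 5 genes held 60.3% of the summed FPKM of the 30.

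Abcd3, the transporter for branched fatty acids and bile acid precursors, reached 158 ± 12.6 FPKM, while its relative Abcd2 was at 0.197 ± 0.0535 FPKM. Baat, which joins bile acids to taurine and is a liver enzyme, was at 0.556 ± 0.312 FPKM. Apart from those extremes the enzymes ran from Dao at 132 ± 6.61 FPKM to Acot8 at 13.6 ± 0.803 FPKM. The most abundant gene of the machinery was the membrane protein Pxmp4, at 53.3 ± 4.25 FPKM, and 10 of the 16 transporters and enzymes lay above it. Next came Pxmp2, a pore of the peroxisomal membrane, at 41.5 ± 3.23 FPKM and Pex19 at 35.1 ± 2.39 FPKM. Pex26 (5.80 ± 0.401 FPKM) and Pex10 (5.34 ± 0.490 FPKM) were lowest. In the order of the 30 means, the library ranges of 21 of 29 neighbouring pairs overlapped, for instance those of Pex6, Pex14 and Pex13 at 16.05, 15.98 and 15.95 FPKM. Clear steps lay between Scp2 and Pecr, between Mlycd (29.1 FPKM) and Pex5 (21.8 FPKM), and between Pex10 and Baat.

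**Figure D1:**
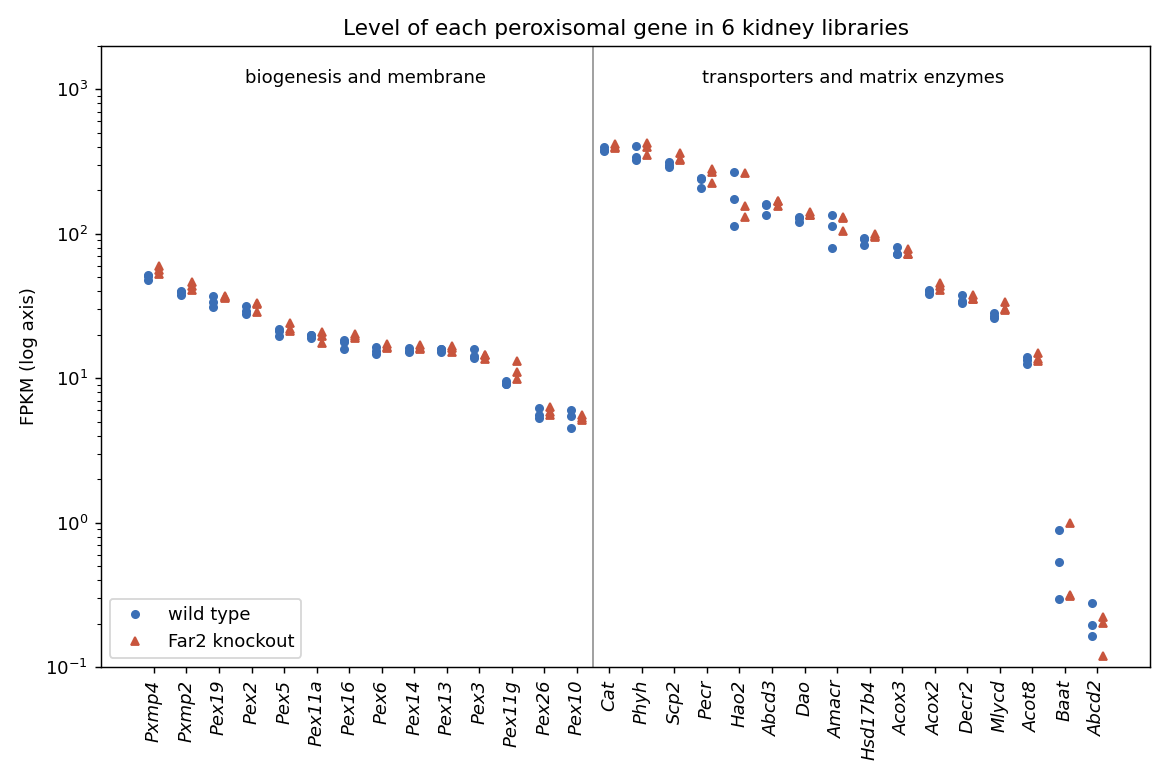
FPKM (log axis) of each member in the 3 wild-type (circles) and 3 Far2 knockout (triangles) libraries, ordered by mean within the biogenesis genes (left) and the transporters and enzymes (right). Single libraries reach 426 FPKM among the enzymes (Phyh) and 60.2 FPKM among the machinery (Pxmp4), while Hao2, Amacr, Baat and Abcd2 scatter widely within both genotypes.

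No member passed the comparison of knockout with wild type. After adjustment over the 14354 genes (Benjamini-Hochberg), edgeR's quasi-likelihood F test called 0 genes (0% of those tested). The smallest adjusted p of a member was 0.599, for Scp2. DESeq2 called 12 of 15457 genes (0.0776%), none of them a member (smallest adjusted p of a member 0.819). At an unadjusted p under 0.05, edgeR gave 1193 genes in either direction (8.31%), of which 455 were higher in knockout (3.17%) and 738 lower (5.14%). Among the 30 members 1 gene, Scp2, had such a p, with a higher mean in knockout, a share of 3.33% that is close to the background of that direction.

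The direction of the small differences was less balanced. The fitted mean was higher in knockout for 25 of 30 members and lower for Pex10, Pex11a, Abcd2, Acox3 and Baat, whereas 48.3% of all tested genes had a higher mean in knockout. The members' median log2 fold change was 0.084, with a highest value of 0.23 (Pex11g) and a lowest of −0.20 (Abcd2), against a median of −0.01 for all genes. Separated by class, 12 of 14 biogenesis genes (median 0.080) and 13 of 16 transporters and enzymes (median 0.097) had the higher mean. In 5 members every knockout library lay above every wild-type library by CPM, namely Pex16, Pex19, Acox2, Hsd17b4 and Scp2, and in 0 members the reverse held. Among all tested genes 7.12% were higher without overlap and 6.96% lower. These counts are descriptions, since the members were listed with earlier results of these libraries known.

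Among the genes for membrane assembly, Pex16 and Pex19 stood without overlap on CPM. Pex16, which receives membrane proteins at the endoplasmic reticulum and the peroxisome (deposited locus chr2:92374675-92381220, mm10), measured 24.7, 27.7 and 25.8 CPM in the wild-type libraries 0, 1 and 2 and 27.8, 30.4 and 29.2 CPM in the knockout libraries. The highest wild-type and the lowest knockout value nearly touch. Its log2 fold change was 0.16 ± 0.081 (SE; edgeR adjusted p = 0.603) with all libraries and 0.12 without wild-type library 0. Pex19, the soluble chaperone of membrane proteins (chr1:172126754-172136497), measured 108, 93.0 and 106 CPM in wild type and 109, 111 and 113 CPM in knockout. Knockout libraries were tight, and wild-type library 1 was low. Its log2 fold change was 0.12 ± 0.072 (adjusted p = 0.646) with all libraries and 0.05 without wild-type library 1. Pex3, the docking site for Pex19, had equal means, 29.92 ± 2.24 and 29.95 ± 1.2 CPM (SD, n = 3).

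The 7 genes of matrix protein import showed no member without overlap and a median log2 fold change of 0.057. Pex2, a ubiquitin ligase of the import pore, measured 51.5, 46.2 and 50.6 CPM in wild type and 48.6, 57.6 and 55.5 CPM in knockout. Knockout library 0 fell inside the wild-type range, and the log2 fold change was 0.13 ± 0.085 (edgeR adjusted p = 0.673). Pex5, the import receptor itself, measured 70.8, 76.8 and 71.3 CPM in wild type and 80.1, 75.9 and 73.4 CPM in knockout. The ranges overlapped, with a log2 fold change of 0.07 ± 0.067 (adjusted p = 0.768). For Pex13 the log2 fold change was 0.09 ± 0.074, for Pex6 0.06 ± 0.088, for Pex26 0.03 ± 0.078, for Pex14 0.01 ± 0.077 and for Pex10 −0.04 ± 0.14. The 95% interval of Pex5, 0.944 to 1.16 times the wild-type level, bounds how far the receptor's mRNA could have shifted.

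The paralogs that elongate and divide peroxisomes, Pex11a and Pex11g, had means on opposite sides. Pex11g measured 10.1, 11.7 and 11.03 CPM in wild type and 12.2, 15.1 and 11.4 CPM in knockout. Its log2 fold change of 0.23 ± 0.12 was the highest of all 30 members (edgeR adjusted p = 0.610), with knockout library 1 far above the rest and library 2 inside the wild-type range. In the authors' deposited table it was the 1 member of 29 tested with p under 0.05 (p = 0.0463, q = 0.663). Pex11a, a PPAR alpha target in liver, measured 15.9, 16.4 and 17.5 CPM in wild type and 16.6, 14.02 and 16.3 CPM in knockout. Its log2 fold change was −0.08 ± 0.095 (adjusted p = 0.821), and the groups overlapped. The difference between the 2 paralogs was not tested.

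Both membrane proteins of the 22 kDa family had higher means in knockout with overlapping groups. Pxmp4 measured 68.3, 72.5 and 69.8 CPM in wild type and 75.2, 82.3 and 72.2 CPM in knockout (edgeR log2 fold change 0.12 ± 0.070, adjusted p = 0.622). Pxmp2 measured 33.0, 35.7 and 34.1 CPM in wild type and 38.7, 37.1 and 35.4 CPM in knockout (0.11 ± 0.076, adjusted p = 0.675). In each, a single knockout library, library 2, kept the groups from separating.

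**Figure D2:**
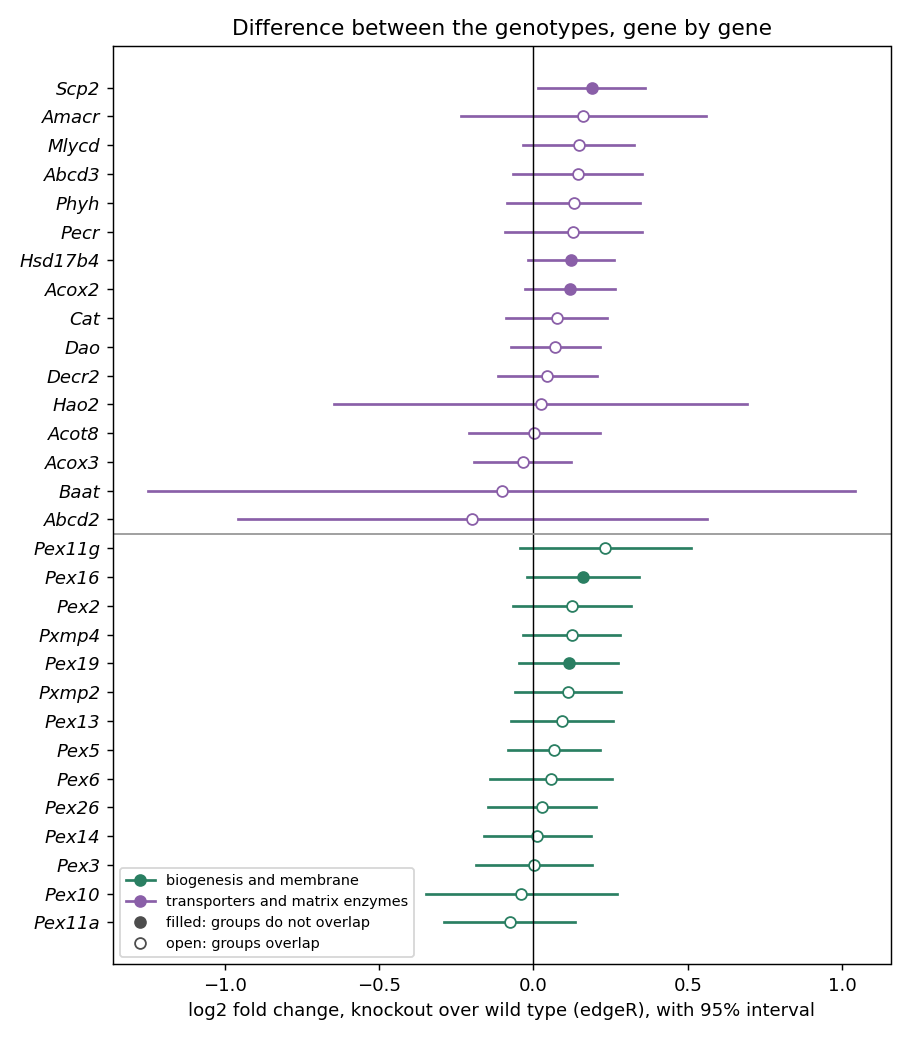
Difference between the genotypes for each member as edgeR's log2 fold change (points) with its 95% interval (bars), enzymes above the line and biogenesis genes below. Filled points mark the 5 members whose groups do not overlap on CPM, and of the 30 intervals only that of Scp2 (0.02 to 0.36) leaves out 0.

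The enzymes that handle branched and very long chains held 3 of the 5 separated members. Scp2 (chr4:108043829-108118547) measured 765, 740.3 and 758 CPM in wild type and 815, 933 and 833 CPM in knockout. Wild-type libraries lay close together and knockout library 1 was highest. Its log2 fold change was 0.19 ± 0.078, a level 1.14 times that of wild type (95% interval 1.01 to 1.29; edgeR adjusted p = 0.599). Its unadjusted p was under 0.05 with all 6 libraries and was not when knockout library 1 or any 1 of the wild-type libraries was left out. Without knockout library 1 the log2 fold change was 0.13, and without wild-type library 0 it was 0.20. The authors' deposited table gives a p of 0.142 for it.

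Acox2, the oxidase that opens the shortening of branched chains and bile acid precursors, measured 122, 124 and 124 CPM in wild type and 125, 141 and 136 CPM in knockout. Knockout library 0 cleared the highest wild-type value only narrowly, and the log2 fold change was 0.12 ± 0.065 (edgeR adjusted p = 0.614). Hsd17b4, the multifunctional protein that carries out the next steps, measured 248, 257 and 243 CPM in wild type and 276, 274 and 264 CPM in knockout. It was the most evenly separated of these genes, with SDs of 7.03 and 6.35 CPM and a log2 fold change of 0.12 ± 0.062 (adjusted p = 0.603). Acox2, Hsd17b4 and Scp2 act one after the other in the same pathway. Acox3, a second branched-chain oxidase, had the lower mean in knockout (338 ± 18.7 against 346 ± 12.9 CPM, SD, n = 3). Acot8, a thioesterase that frees shortened acids, had equal means (16.05 ± 1.27 and 15.99 ± 1.02 CPM).

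Cat measured 975, 1031 and 1024 CPM in wild type and 1106, 1063 and 1024 CPM in knockout. Knockout library 2 equalled wild-type library 2, and the log2 fold change was 0.08 ± 0.073 (edgeR adjusted p = 0.764). Its 95% interval spans 0.941 to 1.18 times the wild-type level. Abcd3 measured 476, 398 and 499 CPM in wild type and 478, 524 and 514 CPM in knockout, with a low wild-type library 1 and a log2 fold change of 0.14 ± 0.093 (adjusted p = 0.659). Abcd2 was counted with 28, 17 and 16 fragments in the wild-type and 11, 16 and 21 in the knockout libraries, too few to tell the groups apart (95% interval 0.515 to 1.48 times the wild-type level). Mlycd, malonyl-CoA decarboxylase, measured 56.6, 64.2 and 59.4 CPM in wild type and 62.6, 72.5 and 64.5 CPM in knockout (log2 fold change 0.15 ± 0.081, adjusted p = 0.613). Only knockout library 0 lay within the wild-type range.

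Phyh measured 597, 485 and 548 CPM in wild type and 541, 601 and 642 CPM in knockout. The groups overlapped widely, with a log2 fold change of 0.13 ± 0.097 (edgeR adjusted p = 0.693). The reductases for unsaturated chains differed in scatter: Pecr measured 268, 243 and 287 CPM in wild type and 251, 316 and 305 CPM in knockout (0.13 ± 0.099, adjusted p = 0.699). Decr2 measured 61.7, 71.0 and 64.0 CPM in wild type and 69.2, 67.5 and 66.2 CPM in knockout (0.04 ± 0.072, adjusted p = 0.862). Dao, which oxidises D-amino acids, measured 230, 247 and 236 CPM in wild type and 241, 259 and 249 CPM in knockout (0.07 ± 0.065, adjusted p = 0.748). In all 4 genes at least 1 knockout library lay among the wild-type values.

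Machinery and enzymes were then compared as sums in each library. The 14 biogenesis and membrane genes summed to 300, 294 and 284 FPKM in wild type and 319, 322 and 306 FPKM in knockout. The 16 transporters and enzymes summed to 2211, 2128 and 2040 FPKM in wild type and 2275, 2339 and 2279 FPKM in knockout. Neither sum overlapped between the genotypes, with means of 293 ± 7.90 against 316 ± 8.25 FPKM and 2126 ± 85.5 against 2298 ± 35.8 FPKM (SD, n = 3). The summed FPKM of every gene in the table ran from 767809 to 794219 in wild type and from 787157 to 836057 in knockout. Its mean was higher in knockout, with the lowest value in wild-type library 0 and the highest in knockout library 1. The class sums were not scaled to this total, so their separation is shown only without such scaling. The part of the total in the class sums was not tested. The ratio of enzymes to machinery was 7.37, 7.24 and 7.18 in wild type and 7.14, 7.27 and 7.44 in knockout. These ratios overlapped, so no shift of one class against the other was seen at this number of mice.

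**Figure D3:**
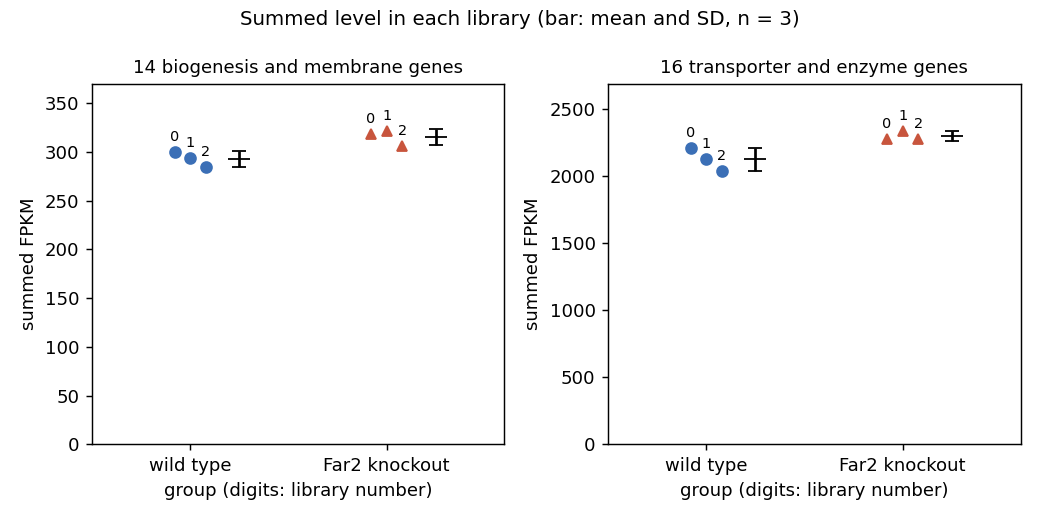
Summed FPKM of the 14 biogenesis and membrane genes (left) and the 16 transporters and enzymes (right) in each library, with the mean and SD of 3 libraries beside the points and the library number above each. All knockout points lie above all wild-type points in both panels, with means of 293 and 316 FPKM on the left and 2126 and 2298 FPKM on the right. The sums are not scaled to the total FPKM of each library, which had a higher mean in knockout.

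Library by library, knockout library 1 held the highest CPM of 13 of the 30 members and wild-type library 0 the lowest of 13. The machinery accounted for 8 of those 13 lows and for 6 of those 13 highs. On the log2 CPM scale, the median deviation of the biogenesis genes from their 6-library means was −0.09, −0.01 and −0.03 in wild type and 0.04, 0.06 and −0.01 in knockout. For transporters and enzymes it was −0.06, −0.03 and −0.05 in wild type and −0.01, 0.10 and 0.04 in knockout. By these medians the knockout library nearest to wild type was library 2 for the machinery and library 0 for the enzymes. For the machinery the groups overlapped, since knockout library 2 (−0.0053) lay just below wild-type library 1 (−0.0051). The difference between the classes is small and was not tested. Leaving out knockout library 1 gave a median log2 fold change of 0.073 over the 30 members, and leaving out wild-type library 0 gave 0.075. Without wild-type library 0, 22 of 30 members had a higher mean in knockout, beside 50.1% of all genes. There 5 members were higher without overlap and 1, Pex10, was lower, beside 14.2% and 15.4% of all genes.

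**Figure D4:**
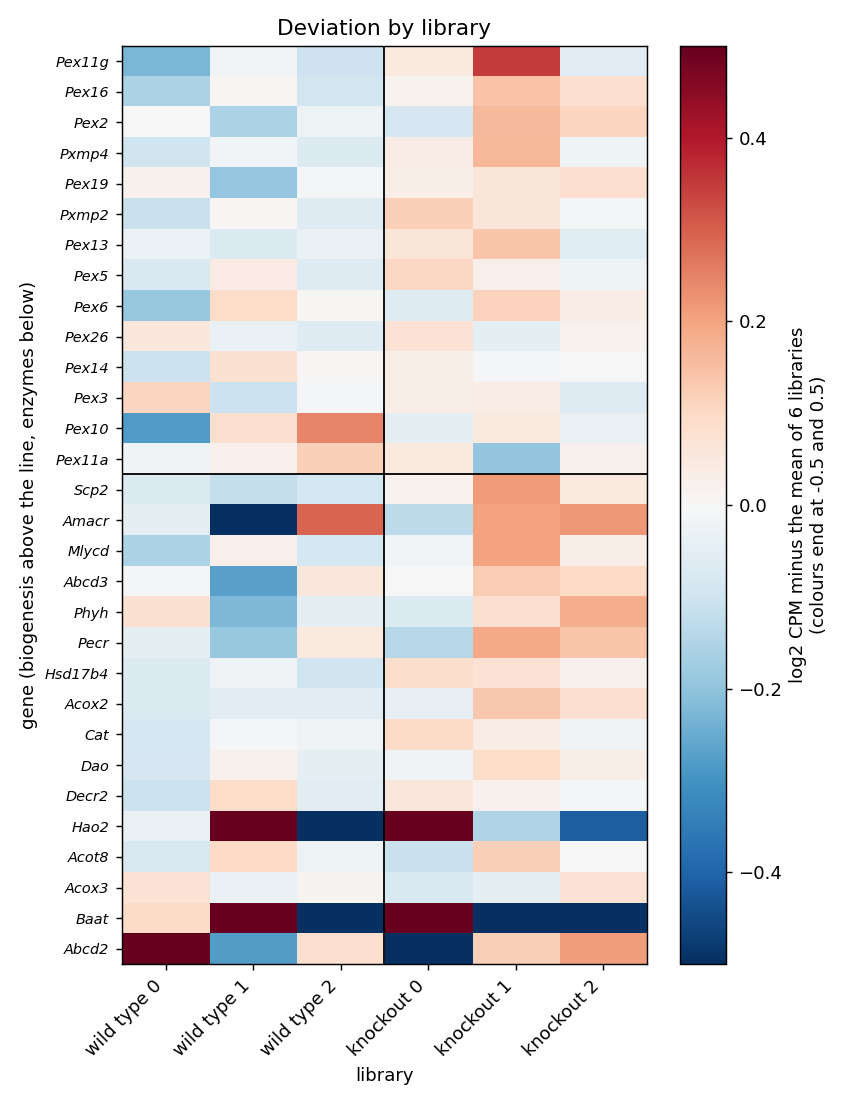
Log2 CPM of each member minus its mean over the 6 libraries, by library (columns; the vertical line separates wild type from knockout), with biogenesis genes above the horizontal line and enzymes below, colours ending at −0.5 and 0.5. Most members are pale, within a narrow band, while Hao2, Baat, Amacr and Abcd2 carry saturated cells that follow single libraries.

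Most members were steady between mice: the highest library was under 1.2 times the lowest in 13 genes and under 1.5 times in 26. The exceptions were Hao2, Baat, Amacr and Abcd2. Hao2, the kidney's 2-hydroxy acid oxidase, measured 338, 513 and 232 CPM in wild type and 529, 312 and 260.1 CPM in knockout, a 2.28-fold range that crosses both genotypes (log2 fold change 0.02 ± 0.30). Baat rested on few fragments, 20, 35 and 9 in the wild-type and 33, 9 and 11 in the knockout libraries. Its lowest libraries lay too close together to be ordered. For both genes wild-type library 1 and knockout library 0 were highest. Amacr, the racemase that readies branched acids for oxidation, was lowest in those same libraries, at 261, 187 and 329 CPM in wild type and 246, 310 and 313 CPM in knockout (log2 fold change 0.16 ± 0.18).

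For the last proximal tubule segment, S3, 6 marker genes were summed. They summed to 7528, 6400 and 8610 CPM in wild type and 7406, 8245 and 8482 CPM in knockout. Their sum, like Amacr, was lowest in wild-type library 1 and knockout library 0, where Hao2 and Baat were highest. The S3 marker Slc7a13 measured 914, 652 and 1038 CPM in wild type and 875, 1094 and 1055 CPM in knockout. Its lowest values were again in those libraries. Slc22a7, another S3 marker, measured 73.5, 83.3 and 167 CPM in wild type and 120, 191 and 144 CPM in knockout. Its lowest values were instead in wild-type libraries 0 and 1. Slc27a2, an S3 marker that is also on the list of further peroxisomal genes below, gave a large part of the sum. It measured 4116, 4000 and 4582 CPM in wild type and 4352.5, 4454 and 4477 CPM in knockout, lowest in wild-type libraries 1 and 0. The sum is therefore not free of peroxisomal genes. The part of S3 cells in the members' values was not tested. The sums of 3 other marker lists did not overlap between genotypes. The 5 hepatocyte genes summed to 111 to 131 CPM in wild type and 153 to 179 CPM in knockout, and the 5 adipocyte genes to 28.1 to 37.2 CPM and 39.0 to 56.0 CPM. The 5 fibroblast and mesangial genes summed to 169 to 266 CPM in wild type and 149 to 167 CPM in knockout. No hepatocyte, adipocyte or fibroblast marker was at 0 in every library, and the part of these cells in the members' values was not tested. Adrenal cortex markers stayed at 4.79 to 7.06 CPM, with 1 of 5 at 0 in every library.

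The other genes of the organelle were examined beside the 30. From a list of 56 further peroxisomal genes, 52 were tested (Acot5, Hao1, Agxt and Uox had too few fragments), and 43 had a higher mean in knockout, with a median log2 fold change of 0.075. Of the 52, 8 had an unadjusted edgeR p under 0.05 and a higher mean, and 1, Zadh2, a lower mean, beside 3.17% and 5.14% of all tested genes. Without overlap were 8 higher (15.4% of the 52) and 1 lower, beside 7.12% and 6.96% of all tested genes, and 0 passed after adjustment. Eci2, an isomerase for unsaturated chains, measured 93.6, 93.3 and 93.4 CPM in wild type and 102, 108 and 105 CPM in knockout. Its wild-type values hardly varied, and its log2 fold change was 0.17 ± 0.058 (edgeR adjusted p = 0.599). Ech1, another isomerase, had 0.21 ± 0.076, Ehhadh, the bifunctional enzyme of straight chains, 0.29 ± 0.10, and Pex7, the receptor for the type 2 signal carried by Phyh, 0.22 ± 0.079, all with adjusted p = 0.599. Each of these was higher in all 3 knockout libraries. Zadh2, a reductase, measured 33.2, 36.9 and 35.9 CPM in wild type and 30.8, 30.6 and 31.5 CPM in knockout (−0.19 ± 0.076, adjusted p = 0.599).

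Limits of counting touch few of these values. Pex3, Pex13, Acox3 and Acot8 share their deposited locus with another gene (Adat2, Pus10, 4931431C16Rik and Snx21), so their counts are less certain. Abcd2 and Baat rest on 9 to 35 fragments a library. For the other members the spread between mice, about 10.1% of the level for a typical gene, limits what 3 libraries a group can show.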

How the data were processed

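Total RNA was extracted from flash-frozen right kidneys and made into stranded libraries after ribosomal RNA was depleted, per the labels' protocols. Named in the submitters' processing notes, without their roles, are Cufflinks 2.2.1 with Cuffdiff, TopHat2 2.0.13, SAMtools 1.2, Bowtie2 2.2.3, cutadapt 1.2.1 and the mm10 build. For gene models and strand setting, the sources used here give nothing. For each gene and library, an estimated count and an FPKM were deposited by the authors. Counts were whole for every member and, over the table, in all but 1.12% of values, which were rounded. A comparison table by the authors holds, per the file headers, mean FPKM of each group, a log2 fold change, a p-value and a q-value. Library numbers (0, 1, 2) match no label, so a number identifies no particular mouse. The labels call the samples biological replicates.

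After filterByExpr and TMM scaling, edgeR 4.0.16 in R 4.3.3 tested every remaining gene (two-sided quasi-likelihood F test, no covariates), with Benjamini-Hochberg adjustment and a threshold of 0.05. CPM uses TMM-scaled library sizes, and "no overlap" was judged on CPM. The standard error is the log2 fold change over the root of F. The script was tested on simulated counts. Alternatives used DESeq2 1.42.0, limma 3.58.1 (voom, and log2(FPKM + 1) and log2(FPKM + 0.1)), other scalings and filters, a threshold of 0.10, and each library left out. Genes described in full were those without overlap or with an unadjusted p under 0.05, plus the 2 with the highest FPKM in each role; from the further list, up to 4 per direction by p. The members and lists were chosen with earlier results of these data known. Coding ends come from the principal GENCODE transcript of each gene, and residues were read from codons with the standard code. Summaries were made in Python 3.11.15.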

Additional observations from a re-analysis of the deposited data

How the results depend on the processing

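The number of genes called over the whole table was 0 by edgeR and became 1 at an adjusted p under 0.10, 1 with no filter on low counts and 12 by DESeq2; leaving out each library in turn gave 0 to 1. No setting called a member. The count of members with an unadjusted p under 0.05 was 1 (Scp2) by edgeR with all libraries. By limma it was 5 on log2(FPKM + 1) and 5 on log2(FPKM + 0.1), namely Pex11g, Pex16, Pxmp2, Scp2 and Mlycd. With each library left out in turn, edgeR gave 0 to 4. The share of all genes with such a p under these settings is not given here. The count of 5 members without overlap became 2 (Hsd17b4 and Scp2) under upper-quartile scaling, where 5.62% of all genes were higher without overlap. It was 9 on log2(FPKM + 1) and 9 on log2(FPKM + 0.1), beside 6.78% of all genes, and all of these members were higher in knockout. Pex19 was not among these 9, because its groups overlapped by FPKM. Leaving out each library gave counts of 5 to 13. The high counts were 13 (wild-type library 1 left out), 11 (knockout library 0 left out) and 11 (knockout library 2 left out, 10 higher and Acox3 lower), where fewer libraries had to be cleared: 12.2%, 13.9% and 12.7% of all genes were then higher without overlap, and 10.8%, 14% and 12.7% lower. For the 30 members, the median log2 fold change kept its sign in all 14 alternatives (0.068 to 0.10), as did those of the biogenesis genes (0.062 to 0.10) and of the transporters and enzymes (0.078 to 0.11). All 70 values of Pex16, Pex19, Acox2, Hsd17b4 and Scp2 stayed above 0, the lowest being that of Pex19 without wild-type library 1 (0.05). These 5 genes were picked because their groups separated in the same libraries, so their steady sign follows largely from that choice. Under upper-quartile scaling 22 of 30 members had a higher mean in knockout, beside 44.0% of all genes. No paired analysis was possible because the library numbers match no mouse and the labels give no numbers that pair mice across the groups.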
